A study of Mus musculus with 16 samples.

Results

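The genes described here are p53 target genes and regulators of p53, 35 named genes that take part in the response to DNA damage, oncogene activity and other stress. Of the 35, 31 were represented by a probe set annotated with that gene symbol alone, out of 12393 genes represented in all. Where a gene had several such probe sets, the one with the highest mean over the 16 arrays stood for it. No probe set used here carried only the symbol Trp53 (the gene of p53 itself), Bax, Eda2r or Fdxr, and these 4 were not analysed here. Messenger RNA was measured on Affymetrix M430A_2 mouse arrays in 4 melanocyte samples, 6 iMet melanomas and 6 iHRAS* melanomas, whose labels use the name iRas. The iMet mouse carries Tyr-rtTA, Tet-Met and Ink4a/Arf-/-, so that a tyrosinase promoter drives the tetracycline transactivator and expression of Met, the hepatocyte growth factor receptor, can be induced. The iHRAS* mouse carries Tyr-rtTA, Tet-HRASV12G and Ink4a/Arf-/-, with activated HRAS in place of Met. Both models therefore lack the Ink4a/Arf locus. No genotype is given for the melanocytes, which are labelled as having no disease, and no ages, induction times or animals are given for any group. The p-values measure the spread between these samples, which may be partly technical.

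p53 is a transcription factor whose amount is kept low by the ubiquitin ligase Mdm2 and whose activity is restrained by the related Mdm4. Arf, one of the products of the Ink4a/Arf locus, binds Mdm2 and releases p53 from it in cells with an active oncogene. Active p53 raises genes that stop the cell cycle, such as Cdkn1a, genes that promote cell death, such as Pmaip1 and Bbc3, and genes of DNA repair and metabolism. It also raises Mdm2 itself, which closes a negative feedback loop.

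The labels were first set against cell type markers. On the melanocyte arrays, 6 of 9 melanocyte markers (Mitf, Tyr, Tyrp1, Dct, Kit and Ednrb) lay below log2 6.21, the 40th percentile of all values and the cut-off used for testing, on every array. Sox10 was at 9.66 ± 0.65 (SD, n = 4) there, and the keratin Krt14 at 12.73 ± 0.92 (SD, n = 4). Of 9 keratinocyte markers, however, 3 (Krt1, Cdh1 and Epcam) lay below the cut-off on every melanocyte array. On the iMet arrays Pax3, Tyr, Tyrp1, Dct and Pmel were below the cut-off on every array. Mean log2 signal of 11 macrophage markers was 10.37 to 11.10 on the iMet arrays and 8.54 to 10.60 on the iHRAS* arrays, against 4.63 to 4.90 on the melanocyte arrays. The sources disagree on the tumour samples: their labels name melanoma cells that were isolated, and the design text names RNA of cutaneous melanomas. Which of these was hybridised is not settled here, and if other cells were present, a lower share of one cell type and a lower RNA level per cell cannot be told apart. Arrays of iHRAS* tumours 5 and 6 had Xist at 6.60 and 6.33, where the other 14 arrays had 10.92 to 13.07. The Y-linked gene Eif2s3y was at 6.40 and 7.20 on these 2 arrays and at 1.32 or below on the other 14. These 2 samples thus differ from the rest in sex, and the setting below without iHRAS* arrays 5 and 6 removes them. Melanocyte arrays 1 and 3 resembled each other, as did arrays 2 and 4, and these pairs differed in several of the genes below. Counts without either pair of arrays, and without 2 pairs of iHRAS* arrays, are therefore given where they differed, and these settings were chosen after the data were seen.

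The comparison of the tumour models asked which genes differ between melanomas driven by Met and by activated HRAS, both without Ink4a/Arf. Of the 28 p53 module genes that passed the cut-off on enough arrays to be tested, 8 were lower in iMet than in iHRAS* tumours and 0 were higher (limma, adjusted p under 0.05 over all genes). Over all 8058 genes tested, 9.7% were lower and 11.2% were higher. The 8 lower genes were the p53 inhibitor Mdm2, the arrest genes Cdkn1a, Ccng1 and Gadd45a, and the apoptosis genes Pmaip1, Phlda3, Trp53inp1 and Aen. At an unadjusted p under 0.05, 12 members were lower and 5 were higher. The median difference of the 28 was −0.25 on the log2 scale, beside 0.03 for all genes. For 6 of the 28, which is 21.4%, every iMet array lay below every iHRAS* array, beside 4.89% of all genes tested. Pmaip1 is in both counts but was tested only because of the iHRAS* group, so its call and its lack of overlap add little. At a cut-off at the 60th percentile, where Pmaip1 was not tested, 7 of 20 members were lower and 0 were higher. Of all genes, 9.94% were lower and 12.6% higher in that setting.

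**Figure D1:**
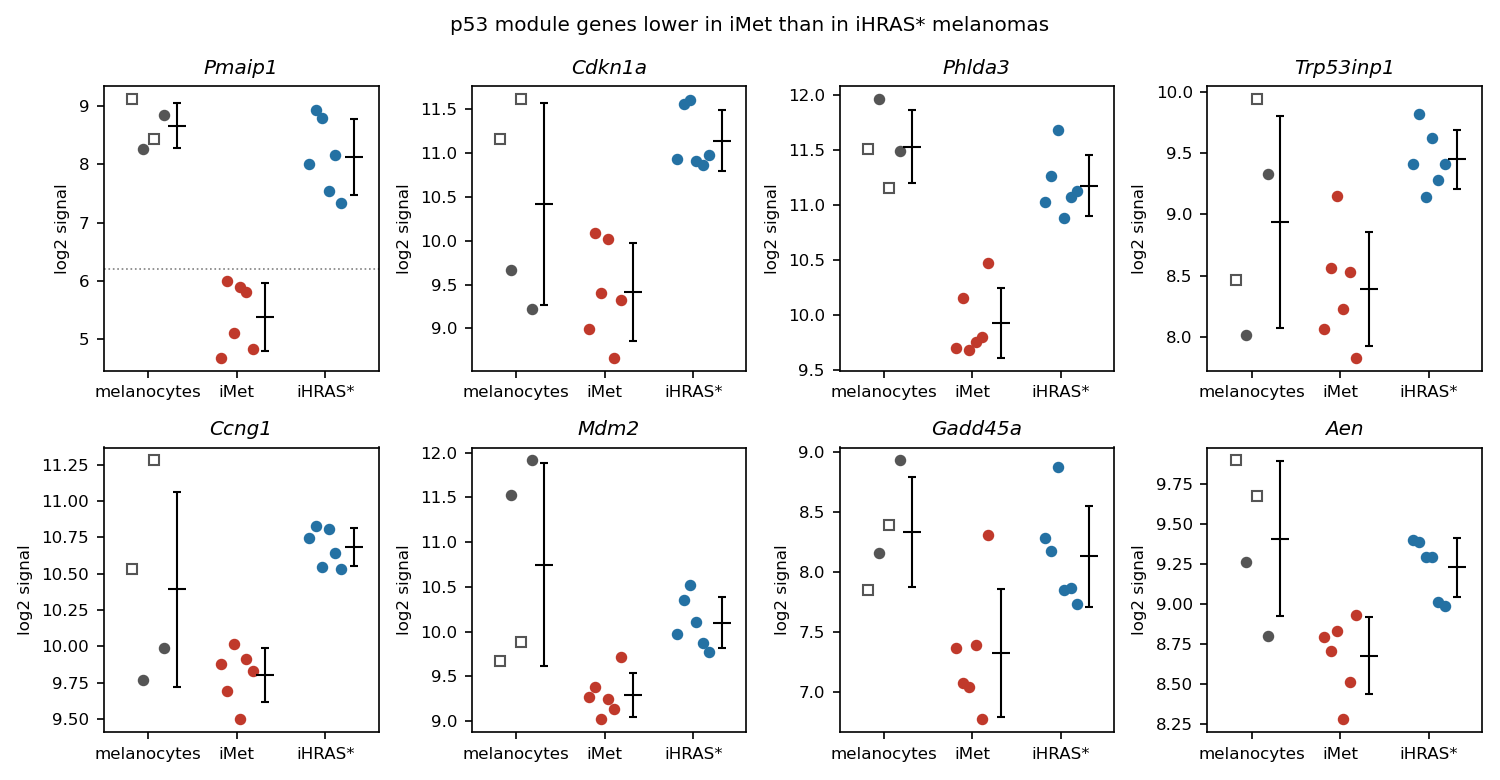
Log2 signal of the 8 p53 module genes that were lower in iMet than in iHRAS* melanomas, on each of the 16 arrays. Points are arrays (open squares are melanocyte arrays 1 and 3), bars are the group mean and SD, and the dotted line is the cut-off of 6.21; the ranges of the tumour models overlap only for Trp53inp1 and Gadd45a.

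The sequences upstream of these genes are shown because 5 of the 6 lower genes with a promoter window in RefSeq's table held a consensus p53 half-site there. The half-site has 10 bases, 3 purines, a C, 2 bases that are A or T, a G and 3 pyrimidines, and its reverse complement has the same form, so 1 strand was searched. A full p53 site consists of a pair of such half-sites. Windows ran from 250 bases before to 50 bases after an annotated start site on build GRCm38.p6, and each sequence below is the 250 bases before the start, written 5′ to 3′ on the gene's strand, with half-sites in capitals. The Mdm2 sequence is at chr10:117710759-117711008 on the minus strand, Cdkn1a at chr17:29090729-29090978 on the plus strand and Ccng1 at chr11:40755287-40755536 on the minus strand. Gadd45a is at chr6:67037408-67037657 on the minus strand and Aen at chr7:78895808-78896057 on the plus strand.
Mdm2: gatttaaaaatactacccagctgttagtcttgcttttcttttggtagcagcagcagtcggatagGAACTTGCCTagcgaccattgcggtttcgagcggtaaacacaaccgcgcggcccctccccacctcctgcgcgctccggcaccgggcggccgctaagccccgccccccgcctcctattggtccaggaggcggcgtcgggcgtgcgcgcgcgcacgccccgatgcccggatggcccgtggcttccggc
Cdkn1a: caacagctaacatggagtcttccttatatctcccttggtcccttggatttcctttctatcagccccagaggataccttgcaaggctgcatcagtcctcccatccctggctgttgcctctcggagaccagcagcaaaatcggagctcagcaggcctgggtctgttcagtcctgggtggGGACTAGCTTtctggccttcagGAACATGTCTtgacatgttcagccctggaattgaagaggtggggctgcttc
Ccng1: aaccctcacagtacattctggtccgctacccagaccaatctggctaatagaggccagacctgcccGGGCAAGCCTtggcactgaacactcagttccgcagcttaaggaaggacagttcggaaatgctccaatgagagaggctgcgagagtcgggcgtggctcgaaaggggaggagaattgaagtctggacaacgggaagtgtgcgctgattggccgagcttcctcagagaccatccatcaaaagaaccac
Gadd45a: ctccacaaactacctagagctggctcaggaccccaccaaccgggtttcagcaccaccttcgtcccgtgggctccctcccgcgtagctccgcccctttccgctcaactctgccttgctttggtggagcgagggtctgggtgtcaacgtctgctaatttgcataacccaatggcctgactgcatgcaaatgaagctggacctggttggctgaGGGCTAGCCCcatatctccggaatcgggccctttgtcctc
Aen: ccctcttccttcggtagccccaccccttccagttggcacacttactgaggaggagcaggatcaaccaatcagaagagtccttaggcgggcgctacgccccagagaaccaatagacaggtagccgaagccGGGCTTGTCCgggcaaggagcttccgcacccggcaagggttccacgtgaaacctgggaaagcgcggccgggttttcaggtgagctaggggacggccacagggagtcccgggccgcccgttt

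The Cdkn1a window held 2 half-sites, whose first bases lay at −73 and −51 from that start. It belongs to the upstream of 2 annotated Cdkn1a starts, and the other, 2790 bases further along, held none. The half-site of Mdm2 began at −186, that of Ccng1 at −185, that of Aen at −121 and that of Gadd45a at −40. The window of Phlda3 held no match, and Trp53inp1 and Pmaip1 had no window in the table. Among the other members with a window, 6 of 22 held a half-site in at least 1 window. These 22 include Trp53, Bax, Eda2r and Fdxr, which had no probe set, and Plk3 and Fas, which were not tested. Trp53 and Bax were among the 6 with a half-site, so the 22 are not all genes found unchanged. A half-site occurred in 8.36% of all 32851 windows and in 9.55% of the 27025 genes with a window. A match is a run of letters and was not tested for binding, and a window without one shows only that these letters were not in it.

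Among p53's regulators, Mdm2 had log2 signals of 9.26, 9.38, 9.02, 9.24, 9.13 and 9.72 in iMet tumours 1 to 6. In iHRAS* tumours 1 to 6 it had 9.97, 10.35, 10.52, 10.11, 9.87 and 9.77. The highest iMet array lay just below the lowest iHRAS* array, so the groups did not overlap. The difference was −0.81 ± 0.15 (SE, n = 6 and 6, limma adjusted p = 0.00378), a level 1.75-fold higher in iHRAS* tumours. A second Mdm2 probe set differed by −0.36. In the fit on all 16 arrays, in which melanocyte arrays set part of the spread, the Mdm2 difference was not called (−0.81, limma adjusted p = 0.0899).

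Mdm4 binds the activation domain of p53 and has no strong ligase activity of its own. Its log2 signals were 7.68, 7.96, 7.82, 7.80, 7.98 and 8.08 in iMet tumours and 7.90, 7.69, 8.18, 8.31, 8.08 and 8.09 in iHRAS* tumours, with overlapping ranges. The difference of −0.16 ± 0.12 (SE) did not pass (limma adjusted p = 0.375). Gtse1, a cell cycle protein that binds p53 and moves it out of the nucleus, was at 7.02 to 7.97 in iMet tumours and 4.52 to 7.47 in iHRAS* tumours, where only 3 of 6 arrays exceeded the cut-off. Its difference of 1.23 ± 0.42 (SE) missed the threshold (limma adjusted p = 0.0538) and passed it without iHRAS* array 2 (1.40, limma adjusted p = 0.0398) or 3 (1.48, limma adjusted p = 0.0196).

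The arrest genes all had negative differences, and 3 of the 6 tested were lower in iMet tumours. Cdkn1a encodes p21, which inhibits cyclin-dependent kinases. Its log2 signals were 8.99, 10.08, 9.40, 10.02, 8.66 and 9.33 in iMet tumours. In iHRAS* tumours they were 10.93, 11.55, 11.61, 10.91, 10.86 and 10.97. Every iHRAS* array lay above every iMet array, and the iMet arrays were the more spread. The difference was −1.72 ± 0.25 (SE, limma adjusted p = 0.000756), 3.30-fold higher in iHRAS* tumours, and a second probe set differed by −1.32.

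Ccng1 encodes cyclin G1, which recruits a phosphatase to Mdm2. Its log2 signals were 9.88, 9.69, 10.01, 9.50, 9.91 and 9.83 in iMet tumours. In iHRAS* tumours they were 10.75, 10.83, 10.54, 10.81, 10.64 and 10.54. Both groups were tight and did not overlap. The difference was −0.88 ± 0.11 (SE, limma adjusted p = 0.000289), and its other probe sets differed by −0.52 and −0.64.

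Gadd45a, a stress protein that binds PCNA and the cyclin B kinase, had 7.37, 7.07, 7.04, 7.39, 6.77 and 8.31 in iMet tumours. In iHRAS* tumours it had 8.28, 8.17, 8.88, 7.85, 7.87 and 7.73. The groups overlapped through iMet array 6, which exceeded 5 of the 6 iHRAS* arrays. The difference of −0.80 ± 0.26 (SE) was near the threshold (limma adjusted p = 0.0441) and was lost when any of 10 of the 12 arrays was left out, with limma adjusted p from 0.0518 to 0.0893 in those cases; it held without iMet array 6 or iHRAS* array 6. It was also lost without iHRAS* arrays 5 and 6 (−0.97, limma adjusted p = 0.0504) and without iHRAS* arrays 3 and 4 (−0.69, limma adjusted p = 0.101). The antiproliferative gene Btg2 differed by −0.53 (limma adjusted p = 0.0687), the CDK4 and E2F cofactor Sertad1 by −0.62 (limma adjusted p = 0.0598) and the kinase Plk2 by −0.31 (limma adjusted p = 0.505), and none of these passed. Sertad1 passed without iMet array 6 (−0.73, limma adjusted p = 0.0334). The kinase Plk3 was below the cut-off on every array and was not tested.

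Of 10 tested genes grouped here under apoptosis, apart from death receptors and Casp8, 4 were lower in iMet tumours. Pmaip1 encodes Noxa, a BH3-only protein that antagonises Mcl1. Its log2 signals were 4.68, 6.00, 5.10, 5.90, 5.81 and 4.84 in iMet tumours. In iHRAS* tumours they were 8.001, 8.94, 8.81, 7.54, 8.16 and 7.34. It was below the cut-off on all 6 iMet arrays and above it on all 6 iHRAS* arrays, so it was tested only because of the iHRAS* group. The difference was −2.74 ± 0.33 (SE, limma adjusted p = 0.000249), and its size rests on dim signals in iMet tumours.

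Phlda3, which competes with Akt for membrane lipids, had 9.70, 10.15, 9.68, 9.75, 9.80 and 10.47 in iMet tumours. In iHRAS* tumours it had 11.02, 11.26, 11.68, 10.88, 11.07 and 11.13, with no overlap. The difference was −1.25 ± 0.17 (SE, limma adjusted p = 0.000525), 2.38-fold higher in iHRAS* tumours. Trp53inp1, a nuclear protein that promotes p53 phosphorylation, had 8.07, 8.56, 9.15, 8.23, 8.53 and 7.83 in iMet tumours and 9.42, 9.82, 9.14, 9.63, 9.28 and 9.42 in iHRAS* tumours. The ranges met at iMet array 3 and iHRAS* array 3. The difference was −1.06 ± 0.20 (SE, limma adjusted p = 0.00385), and a second probe set differed by −0.52.

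Aen, an apoptosis-enhancing nuclease, had 8.79, 8.71, 8.83, 8.28, 8.51 and 8.93 in iMet tumours and 9.40, 9.39, 9.30, 9.29, 9.01 and 8.99 in iHRAS* tumours. The ranges did not overlap, although the nearest arrays were close. The difference was −0.55 ± 0.13 (SE, limma adjusted p = 0.0108). Its other probe sets did not share a sign, at 0.19 and −0.40, and the second of these was below the cut-off in all 3 group means. The call was lost with the mean of its probe sets (−0.25, limma adjusted p = 0.415) and on values as deposited (−0.31, limma adjusted p = 0.0853).

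The other 6 apoptosis genes tested did not pass. Bbc3, which encodes the BH3-only protein Puma, was at 6.25 to 6.62 in iMet and 6.02 to 6.73 in iHRAS* tumours, a difference of 0.04 ± 0.13 (SE, limma adjusted p = 0.847). Apaf1, the core of the apoptosome, differed by 0.21 (limma adjusted p = 0.501), and the iron reductase Steap3 by −0.35 (limma adjusted p = 0.444). Triap1, a mitochondrial lipid transfer partner, differed by 0.36 (limma adjusted p = 0.0637) and passed without iHRAS* array 5 (0.41, limma adjusted p = 0.0434). The RNA-binding protein gene Zmat3 differed by −0.25 and Ei24, a membrane protein of the endoplasmic reticulum, by −0.33.

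The initiator caspase gene Casp8 differed by 0.36 ± 0.14 (SE, limma adjusted p = 0.0819). The death receptor genes Fas and Tnfrsf10b were not tested, since they exceeded the cut-off on 1 iHRAS* array and on no tumour array respectively. DNA repair and nucleotide supply genes gave 0 calls of 5 with limma, with 1 at an unadjusted p under 0.05. Their differences ran from −0.23 for Rrm2b, a ribonucleotide reductase subunit, to 0.61 for Polk, a translesion polymerase, with the damage recognition genes Xpc and Ddb2 at 0.01 and 0.19 and the nuclease gene Ercc5 at −0.09. Genes of oxidative stress and mTORC1 control gave 0 calls of 3, again with 1 at an unadjusted p under 0.05. Sesn1 differed by 0.58 and Sesn2, its fellow sestrin, by −0.24, while the mTORC1 inhibitor Ddit4 ranged from 9.10 to 12.31 among iMet tumours alone.

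**Figure D2:**
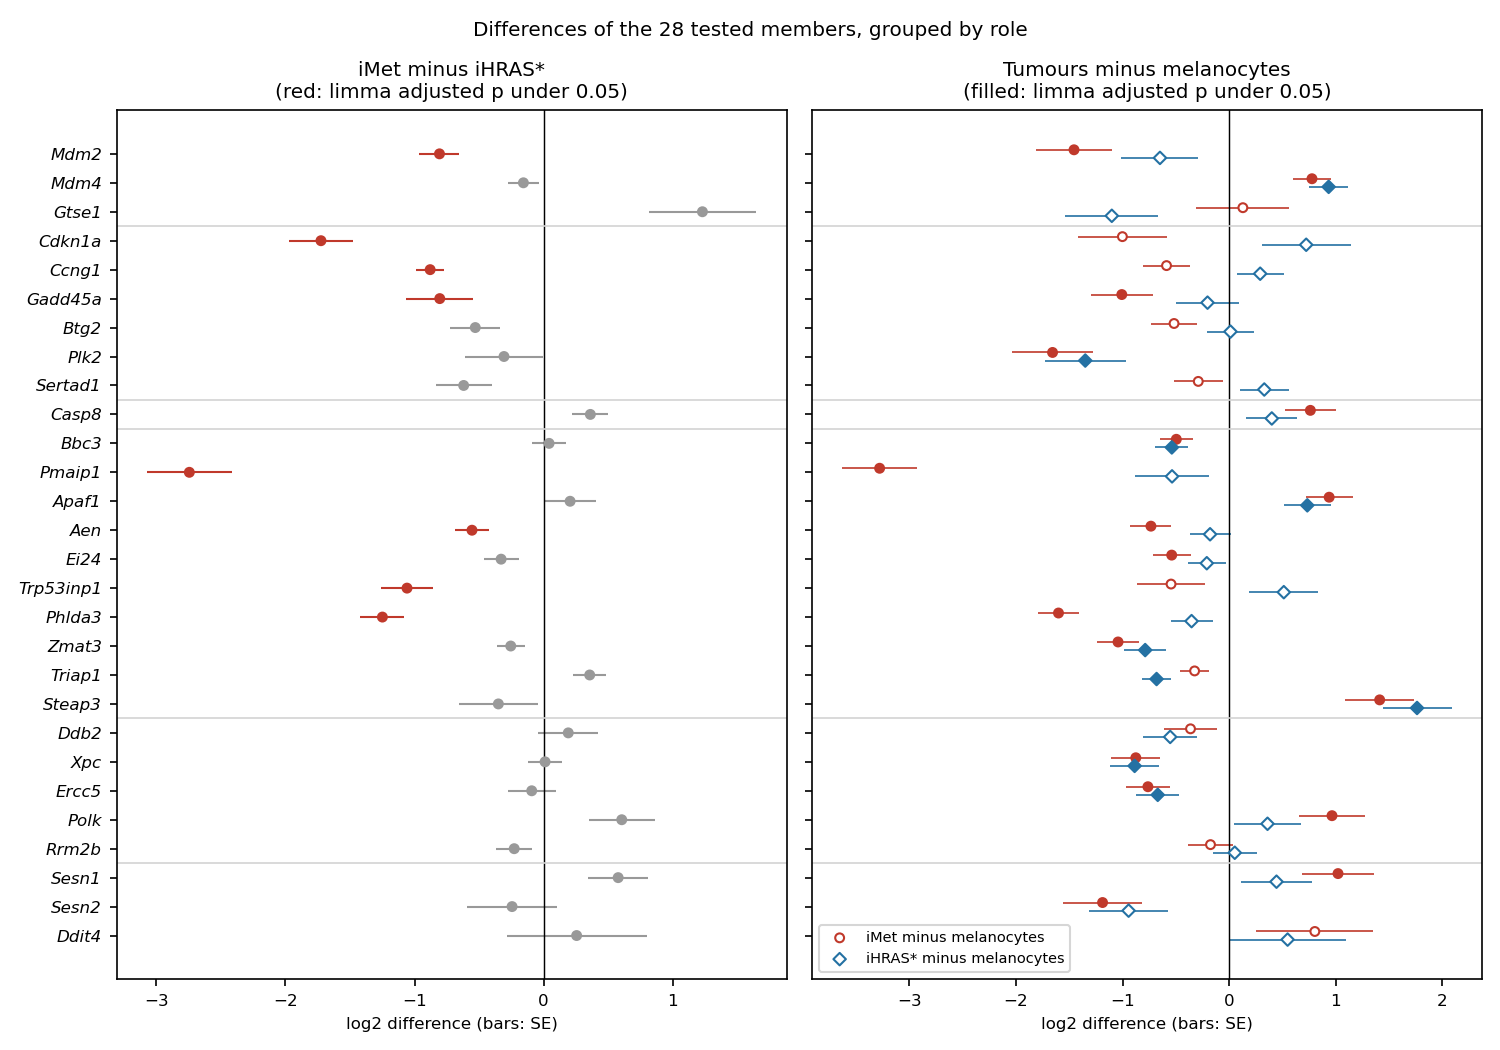
Log2 differences with standard errors of the 28 tested p53 module genes, in blocks by role, between the tumour models (left) and of each model from melanocytes (right). In the left panel the called genes (red) all lie left of 0, from −0.55 for Aen to −2.74 for Pmaip1; in the right panel filled symbols mark called genes.

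Several other lists moved between the models along with these genes. Mean log2 signal over 9 keratinocyte markers was 4.53 to 9.73 on the iMet arrays and 9.06 to 11.26 on the iHRAS* arrays, and 3 of 8 tested were lower in iMet tumours. Of 10 endothelial markers tested, 7 were higher in iMet tumours, as were 2 of 11 macrophage markers. Of 5 melanocyte markers tested, 3 were lower in iMet tumours, with group ranges that did not overlap: the neural crest transcription factor gene Sox10 by −3.26 ± 0.33 (SE, limma adjusted p = 9.34e-05), Pax3 by −2.33 ± 0.44 (SE, limma adjusted p = 0.00325) and Pmel by −1.15 ± 0.31 (SE, limma adjusted p = 0.0211). Pax3 and Pmel were below the cut-off on every iMet array and were tested only because of the iHRAS* group, so their calls add little. The other 2 tested were not called, Mitf at 7.56 in iMet and 7.34 in iHRAS* tumours and Kit at 6.89 and 6.93. The mean over 9 melanocyte markers was 5.34 to 5.89 on iMet and 5.92 to 7.67 on iHRAS* arrays. All 11 tested cell division genes were higher, with a median difference of 1.19. The part of macrophage, melanocyte and cell division genes in the differences was not tested. When each array's keratinocyte and endothelial means entered the fit as covariates, 1 of the 8 genes was still called, Pmaip1 at −3.30 (limma adjusted p = 0.0253), which was tested only through its level in iHRAS* tumours and says little of the others. The other 7 lost their call. Cdkn1a was then at −1.999 (limma adjusted p = 0.0564), Ccng1 at −0.69 (limma adjusted p = 0.103), Phlda3 at −0.99 (limma adjusted p = 0.13) and Trp53inp1 at −0.95 (limma adjusted p = 0.246). Mdm2 was at −0.63 (limma adjusted p = 0.298), Gadd45a at −0.51 (limma adjusted p = 0.652) and Aen at −0.29 (limma adjusted p = 0.586). Over all genes, 49 were higher and 68 lower in this fit, against 905 and 782 without the covariates. Endothelial means were 7.73 to 9.34 on iMet and 6.89 to 7.95 on iHRAS* arrays. Both covariates thus partly repeat the split between the models, and the lost calls cannot be read as results about the members.

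**Figure D3:**
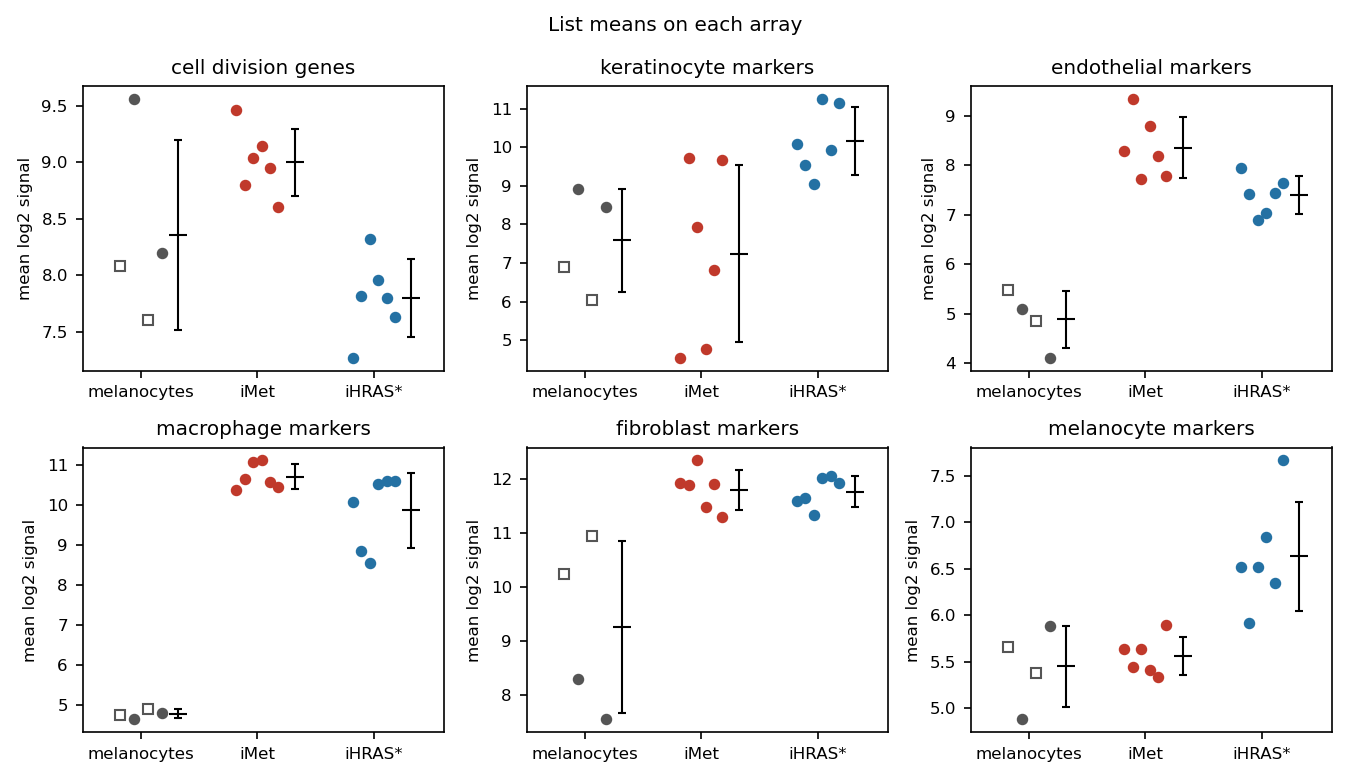
Mean log2 signal of cell division genes and of 5 cell type marker lists on each array, with group mean and SD; open squares are melanocyte arrays 1 and 3. Keratinocyte means run from 4.53 to 9.73 among iMet tumours, and macrophage means are below 5 on all melanocyte arrays.

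Other genes of the pathway were described from 2 further lists. Of 26 other p53 targets, 22 were tested, 2 (9.09%) were higher in iMet tumours and 3 (13.6%) were lower, shares near the 11.2% and 9.7% of all genes, with a median difference of −0.27. The higher genes were Pcna, the DNA polymerase clamp (0.92 ± 0.13, SE, limma adjusted p = 0.000624), and the spindle protein gene Ckap2 (1.30 ± 0.23, SE, limma adjusted p = 0.00217), which are also expressed in dividing cells. The lower genes were Perp, a desmosome protein of epithelia (−2.83 ± 0.73, SE, limma adjusted p = 0.0161), Igfbp3, a binding protein of insulin-like growth factors (−1.45 ± 0.34, SE, limma adjusted p = 0.0107), and the cytokine Lif (−0.86 ± 0.23, SE, limma adjusted p = 0.0189), which was named after its value was seen. Of 26 p53 kinases, ligases and cofactors, 17 were tested, 2 (11.8%) were higher, again near the share of all genes, and 0 were lower, also with 0 lower at an unadjusted p under 0.05 in limma. The checkpoint kinase gene Chek1 was higher by 0.93 ± 0.20 (SE, limma adjusted p = 0.00661) and the nucleolar Npm1 by 0.38 ± 0.12 (SE, limma adjusted p = 0.0451). Cdkn2a, the gene of the Ink4a/Arf locus, was below the cut-off on every array of all 3 groups and was not tested, so this probe set does not check the deletion.

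The comparisons with melanocytes asked how each tumour model differs from cells without disease. Both use the same 4 melanocyte arrays, so a resemblance between them is partly built in, and their values are given side by side. In iMet tumours 6 of 28 members were higher than in melanocytes and 12 were lower, beside 16.4% and 18.7% of all 8651 genes. In iHRAS* tumours 3 were higher and 6 were lower, beside 18.1% and 21.3% of all genes. The shares of members were 21.4% and 42.9% for iMet and 10.7% and 21.4% for iHRAS* tumours, so only the share lower in iMet tumours was well above its background. The median difference of the members was −0.53 for iMet tumours, beside −0.08 for all genes, and −0.19 for iHRAS* tumours, beside −0.09.

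These counts changed with the melanocyte arrays used. Without arrays 1 and 3, 7 of 28 members were lower in iMet tumours, and Aen, Bbc3, Ei24, Plk2 and Sesn2 were no longer called. The share of all genes called lower fell as well, from 18.7% to 13%. Without arrays 2 and 4, 3 of 29 were higher in iMet tumours, and Apaf1, Casp8 and Polk were no longer called. The share of all genes called higher fell from 16.4% to 12%. The pairs also differed in central genes of the pathway. Mdm2 was at 9.67 and 9.89 in melanocyte arrays 1 and 3 and at 11.52 and 11.91 in arrays 2 and 4. Cdkn1a ran the other way, at 11.16 and 11.61 in arrays 1 and 3 and at 9.66 and 9.22 in arrays 2 and 4. Ccng1 followed Cdkn1a, with 10.53 and 11.28 against 9.77 and 9.99. Arrays 1 and 3 had higher fibroblast marker means (10.24 and 10.93) than arrays 2 and 4 (8.30 and 7.54). Keratinocyte means were lower in the first pair (6.91 and 6.04) than in the second (8.93 and 8.46). Whether these cells take part in the difference was not tested.

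**Figure D4:**
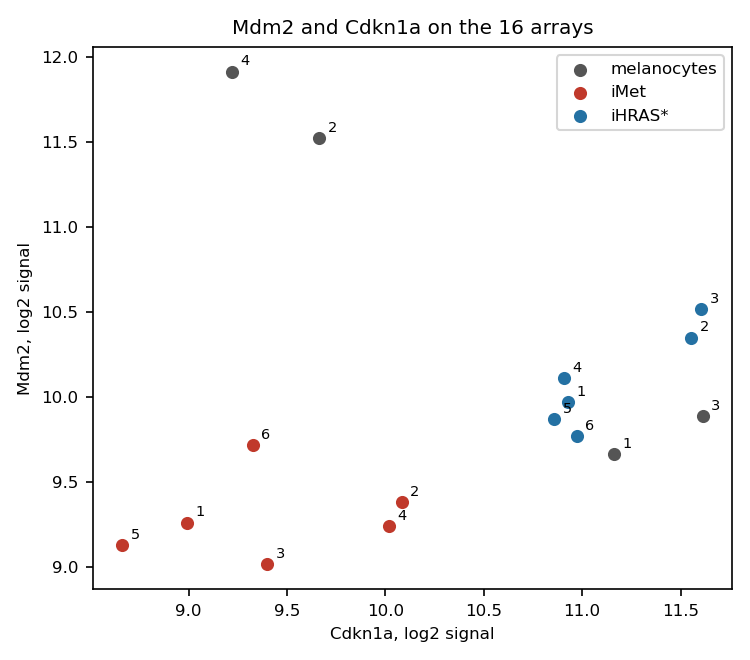
Log2 signal of Mdm2 against Cdkn1a on the 16 arrays, coloured by group and numbered by replicate. Melanocyte arrays 2 and 4 stand alone at Mdm2 11.52 and 11.91, melanocyte arrays 1 and 3 lie beside the iHRAS* tumours, and the iMet tumours occupy the corner low in both genes.

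Mdm2 was lower in iMet tumours than in melanocytes by −1.46 ± 0.36 (SE, limma adjusted p = 0.00615). Without melanocyte arrays 1 and 3 the difference was −2.43 (limma adjusted p = 7.89e-06), and without arrays 2 and 4 it was −0.49 (limma adjusted p = 0.119). In iHRAS* tumours Mdm2 differed by −0.65 (limma adjusted p = 0.166), by −1.62 without arrays 1 and 3 (limma adjusted p = 0.000184) and by 0.32 without arrays 2 and 4 (limma adjusted p = 0.296). Its direction in iHRAS* tumours thus turned with the pair.

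Cdkn1a did not pass in either model with all arrays, at −1.002 ± 0.42 (SE, limma adjusted p = 0.0742) in iMet and 0.72 ± 0.42 (SE, limma adjusted p = 0.181) in iHRAS* tumours. Without melanocyte arrays 1 and 3 it was higher in iHRAS* tumours by 1.70 (limma adjusted p = 0.00303) and stood at −0.03 in iMet tumours (limma adjusted p = 0.96). Without arrays 2 and 4 it was lower in iMet tumours by −1.98 (limma adjusted p = 0.00163) and stood at −0.25 in iHRAS* tumours (limma adjusted p = 0.637). Ccng1 was called higher in iHRAS* tumours without arrays 1 and 3 (0.81, limma adjusted p = 0.00174) and lower in iMet tumours without arrays 2 and 4 (−1.10, limma adjusted p = 0.00129).

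Other members gave the same call with either pair left out. In iMet tumours Pmaip1 was lower by −3.28 ± 0.35 (SE, limma adjusted p = 6.79e-06), with melanocyte arrays at 9.13, 8.27, 8.43 and 8.84 and iMet signals below the cut-off. Phlda3 was lower by −1.60 ± 0.20 (SE, limma adjusted p = 2.69e-05), with melanocyte arrays at 11.50, 11.96, 11.15 and 11.49, all above every iMet array. Zmat3 was lower by −1.04 ± 0.20 (SE, limma adjusted p = 0.000941). In iHRAS* tumours Triap1 was lower by −0.68 ± 0.14 (SE, limma adjusted p = 0.00137), and neither Pmaip1 nor Phlda3 passed. Zmat3 was lower there too, by −0.79 ± 0.20 (SE, limma adjusted p = 0.00547), but not without melanocyte arrays 1 and 3 (−0.32, limma adjusted p = 0.119).

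Mdm4 and Steap3 were higher than in melanocytes in both models with either pair left out. Mdm4 was at 6.66, 6.75, 7.42 and 7.60 in the melanocytes, below every tumour array. It was higher by 0.78 ± 0.18 (SE, limma adjusted p = 0.00431) in iMet and 0.93 ± 0.18 (SE, limma adjusted p = 0.00114) in iHRAS* tumours. A second Mdm4 probe set, below the cut-off in all 3 group means, differed by 0.07 in iMet tumours. With the mean of both probe sets the iMet difference was 0.42 and was not called (limma adjusted p = 0.102), while that in iHRAS* tumours was 0.55 and was (limma adjusted p = 0.0331). Steap3 was higher by 1.41 ± 0.32 (SE, limma adjusted p = 0.00374) in iMet and by 1.76 ± 0.32 (SE, limma adjusted p = 0.000729) in iHRAS* tumours. Macrophage marker means, below 5 in melanocytes and above 8 in the tumours, were also higher in both models, as were endothelial, fibroblast and lymphocyte means. Of 5 lymphocyte markers only 1 was tested, Ptprc, at 4.65 in melanocytes, 10.17 in iMet and 10.14 in iHRAS* tumours. Cd3e and Cd3g were below the cut-off on every iMet array, and Cd79a and Ms4a1 on every iHRAS* array. Between the models the macrophage mean was 10.70 in iMet and 9.86 in iHRAS* tumours, and Steap3 differed by −0.35 and was not called. Macrophage means follow the split of tumours from melanocytes, so the 2 cannot be told apart in these comparisons. The part of these cell types was not tested.

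The remaining calls against melanocytes were less stable. The DNA repair genes Xpc and Ercc5 were lower in both models, Xpc by −0.88 and −0.89 and Ercc5 by −0.76 and −0.67 in iMet and iHRAS* tumours, and neither passed without melanocyte arrays 2 and 4. Plk2 was lower by −1.66 and −1.35, and Aen by −0.73 in iMet tumours, and neither passed without melanocyte arrays 1 and 3. Apaf1 was higher by 0.94 in iMet and 0.73 in iHRAS* tumours, and Bbc3 was lower by −0.50 and −0.54. Apaf1 did not pass in either model without melanocyte arrays 2 and 4, nor Bbc3 without arrays 1 and 3. In iHRAS* tumours Plk2 and Ercc5 also missed without iHRAS* arrays 5 and 6. With 1 array left out, Apaf1 did not pass in iHRAS* tumours without melanocyte array 2 (limma adjusted p = 0.0557), nor Bbc3 without array 3 (limma adjusted p = 0.0507), and Ercc5 did not without array 4 (limma adjusted p = 0.0642).

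In iMet tumours alone, Casp8 was called higher (0.76), with Polk (0.97) and Sesn1 (1.02), and Gadd45a (−1.01), Sesn2 (−1.19) and Ei24 (−0.54) were called lower. Each of these calls ended without at least 1 array. Casp8 missed without melanocyte array 2 (limma adjusted p = 0.0922) or 4 (limma adjusted p = 0.084), and Gadd45a without melanocyte array 4 (limma adjusted p = 0.0579). Sesn2 and Bbc3 missed without melanocyte array 1 (limma adjusted p = 0.0579 and 0.0561) or 3 (limma adjusted p = 0.062 and 0.0841). Sesn1 missed without melanocyte array 1 or 3 or iMet array 3 (limma adjusted p from 0.0585 to 0.104). Ei24 missed without melanocyte array 1 or 3 or iMet array 2 or 4 (limma adjusted p from 0.0528 to 0.105), and Polk without melanocyte array 1, 2 or 4 or iMet array 6 (limma adjusted p from 0.0517 to 0.0955). Whether a member called in 1 model differs between the models is given by the direct comparison above, in which Casp8, Polk, Sesn1, Sesn2 and Ei24 did not pass.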

How the data were processed

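Messenger RNA levels of 4 melanocyte, 6 iMet and 6 iHRAS* samples were analysed. Per the labels' protocols, Trizol and RNeasy extracts were amplified by T7 transcription into biotinylated cRNA; the array was the Affymetrix M430A_2. The authors deposited 1 value per probe set and array, from −4.07 to 14.53, taken as log2 signal; the summarisation and normalization are not given in the sources used here. Column medians ran from 6.56 to 7.28, a spread of 0.719, so values were quantile-normalized, which makes every difference relative to the rest of the array. Of 22690 probe sets, 64 controls were left out and 20380 carried 1 gene symbol in GEO's platform annotation, giving 12393 genes.

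Genes above log2 6.21 (40th percentile) on at least as many arrays as the smaller group compared were tested with limma 3.58.1 in R 4.3.3 (lmFit and eBayes, two-sided), with a call at an adjusted p under 0.05 (Benjamini-Hochberg over all genes). The tumour comparison used the 12 tumour arrays, the others all 16. Every adjusted p in the text is limma's. On simulated data, 74% of genes changed by log2 1 and 96% of those changed by log2 2 were recovered between the tumour models (8037 genes run). The changed genes were drawn only from those with a mean well above the cut-off, so these rates do not cover dimmer members such as Pmaip1 and Gtse1. Members and lists were chosen with earlier results of these data known. Values in every array are given for Mdm2, Mdm4, Cdkn1a and members called between the tumour models, and outside the members up to 4 genes of each list with the smallest p are named. Lymphocyte markers had 1 gene tested and gave 0 calls between the models. Promoter sequences are from RefSeq (GRCm38.p6), which matched 28 of 35 members. Replicate numbers were not treated as pairs in the main fits, and deviations of same-numbered tumours correlated at −0.225 to 0.107. These correlations were not compared with those of differently numbered tumours, so they do not exclude a shared batch or pairing. The alternatives were other scalings, dim filters, probe set rules, variance models, fits, covariates and arrays left out. The number of arrays limits the precision.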

Additional observations from a re-analysis of the deposited data

Results flagged for a closer look

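The 3 members, Cdkn1a, Ccng1 and Trp53inp1, lay below the melanocyte mean in iMet tumours and above it in iHRAS* tumours, and differed between the models. Cdkn1a was at −1.002 and 0.72 from melanocytes, with −1.72 between the models. Ccng1 was at −0.59 and 0.29, with −0.88 between the models. Trp53inp1 was at −0.55 and 0.51, with −1.06 between the models. None of these differences from melanocytes was called with all arrays, and the difference between models is the tested one. The position above melanocytes in iHRAS* tumours was not shared by every probe set. Other probe sets were at 0.03 for Cdkn1a, at −0.17 and 0.21 for Ccng1 and at −0.22 for Trp53inp1, while each was lower in iMet tumours than in melanocytes and than in iHRAS* tumours by its group means.

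Single arrays stood apart from the rest of their group in 8 of 93 combinations of member and group, where chance gives about 1 in 20. Btg2 was high in iHRAS* tumour 2, at 9.46 with the next array at 8.93. Plk2 was high in iMet tumour 4, at 10.48 with the next at 9.45. The other 6 were low. In iMet tumour 6 Sesn2 was at 5.27 with the next at 7.13, and Fas at 3.15 with the next at 5.01. In iMet tumour 5 Apaf1 was at 8.04 with the next at 8.57, and Xpc at 6.70 with the next at 6.82. Tnfrsf10b was at 2.23 in iHRAS* tumour 2, with the next at 4.06, and Steap3 at 7.26 in melanocyte array 1, with the next at 7.89. Fas and Tnfrsf10b were below the cut-off there.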

How the results depend on the processing

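Outside the covariate fit, the 8 members lower in iMet than in iHRAS* tumours kept their call in 156 of 175 combinations of member and alternative, and Cdkn1a, Ccng1, Phlda3, Trp53inp1 and Pmaip1 kept it in each one that tested them; Pmaip1 was not tested at the 60th percentile cut-off. Members called in iMet tumours against melanocytes kept it in 316 of 357, and those in iHRAS* tumours in 181 of 195. With keratinocyte and endothelial means as covariates, 1 member was lower between the models, beside 0.844% of all genes. Against melanocytes 0 were higher and 0 lower in either model (limma, with 0.127% to 0.647% of all genes called in each direction). In iMet tumours against melanocytes Casp8 then turned to −0.12, Gadd45a to 0.50 and Mdm2 to 0.13. Endothelial means were 4.10 to 5.48 on melanocyte arrays and 6.89 to 9.34 on tumour arrays, so this covariate largely repeats the split of tumours from melanocytes. Against melanocytes the fit therefore cannot separate the 2, and neither the lost calls nor the turned signs can be read as results about the members. Between the models the covariates also partly followed the split, and the calls lost there cannot be read so either. The cause was not tested. The count higher in iMet than in iHRAS* tumours, 0, became 5 on values as deposited, beside 22% of all genes. It became 2 with arrays centred on their medians, beside 10.1%. In the fit on all 16 arrays it was 1, beside 10.7%, and without iHRAS* arrays 3 and 4 it was 1, beside 11%. Without melanocyte arrays 2 and 4, 3 of 29 members were higher in iMet tumours, beside 12% of all genes. Without arrays 1 and 3, 7 of 28 were lower in iMet tumours, beside 13%, and 6 were higher in iHRAS* tumours, beside 16.5%. At the 60th percentile cut-off, with 22 members tested, 3 were lower in iHRAS* tumours than in melanocytes, beside 22% of all genes.

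Leaving out 1 array at a time gave 0 to 1 higher and 7 to 9 lower members between the models, 4 to 6 and 9 to 14 for iMet tumours against melanocytes, and 2 to 7 and 5 to 7 for iHRAS* tumours. The 7 arose without melanocyte array 3, when Casp8, Ccng1, Cdkn1a and Trp53inp1 also passed. With 1 array left out, 8.08% to 12.1% of all genes were higher and 7.67% to 9.98% lower between the models. The shares were 13.7% to 15.4% and 14% to 18% for iMet tumours against melanocytes, and 14.6% to 18.6% and 16.4% to 22.7% for iHRAS* tumours. With the replicate number as a block the counts were 0 and 7, 4 and 12, and 3 and 6, higher and lower in the same order. The shares of all genes were then 7.71% and 7.01%, 13.7% and 14%, and 15.5% and 17.2%. Over all genes, the split between the models was 905 higher and 782 lower, and 1800 and 448 as deposited, where the median of all genes was 0.231; for iMet tumours against melanocytes it was 1418 and 1622, and 1176 and 2308 when centred, and 1527 and 1202 as deposited; for iHRAS* tumours it was 1565 and 1839, and 1336 and 2570 when centred, and 1341 and 2425 as deposited. Signals near the cut-off limit what can be said of Pmaip1 in iMet tumours and of Gtse1.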
